A study of Mus musculus with 4 samples.

Results

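The 10 elastic fibre genes Eln, Fbn1, Fbn2, Fbln1, Fbln2, Fbln5, Efemp1, Efemp2, Mfap4 and Mfap5 were chosen by name, from 22691 genes in the table, with their values in these libraries already known. Their RNA levels were compared between mouse embryonic fibroblasts, the adherent connective tissue cells grown from fetuses, that were homozygous for the MD1 allele of Smchd1 (MD1, 2 libraries) and fibroblasts with wild-type Smchd1 (WT, 2 libraries). All fibroblasts came from female fetuses at stage E13.5 and were heterozygous for Xist deltaA, which they inherited from C57BL6/J mothers, while the fathers were F1 hybrids of JF1 and C57BL6/J. The study asked how SmcHD1, a noncanonical SMC protein of chromatin, serves the silencing of the inactive X chromosome. None of the 10 genes lies on that chromosome. The libraries were made from polyadenylated RNA, and no label says whether the replicates came from separate fetuses.

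Elastic fibres give skin, vessels and lungs their recoil. A core of crosslinked elastin is laid down on a scaffold of fibrillin microfibrils. Fibulins and microfibril-associated glycoproteins connect elastin, microfibrils and cells, and lysyl oxidases crosslink the secreted tropoelastin. Fibroblasts and smooth muscle cells are known producers of these proteins.

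RNA levels were given as FPKM, fragments per kilobase of transcript scaled to the library's fragments. The authors gave 1 mean per genotype and none for single libraries. The values therefore carry no spread, no test was possible, and a difference may rest on 1 of the 2 libraries. The depth behind the FPKM is unknown, while allele-specific reads of X-linked genes, the counts given per library, totalled 704635 and 806626 in MD1 and 544330 and 521768 in WT. Smchd1 (chromosome 17, 71693834 to 71824683, mm9) had 1.94 FPKM in MD1 and 14.7 FPKM in WT, or 13.1% of the WT level. As a check of the fibroblast label, Vim, the mesenchymal intermediate filament gene, had 2802 FPKM in MD1 and 2790 FPKM in WT. Markers of epithelial, endothelial and macrophage cells were present at low to moderate levels. Some smooth muscle markers and the cartilage gene Col2a1 were more abundant. The smooth muscle gene Acta2 had 1826 FPKM in MD1 and 3015 FPKM in WT, and Col2a1 had 83.9 FPKM in MD1 and 133 FPKM in WT. A further cartilage gene, Sox9, had 7.10 FPKM in MD1 and 4.41 FPKM in WT. The remaining cartilage genes had at most 2.35 FPKM in either genotype. Of 4 epithelial genes, Krt18 had 22.1 FPKM in MD1 and 17.1 FPKM in WT and Krt8 2.41 FPKM in MD1 and 2.57 FPKM in WT, while Epcam (0.172 FPKM in MD1 and 0.182 FPKM in WT) and Cdh1 (0.115 FPKM in MD1 and 0.143 FPKM in WT) were under 1 FPKM. Of 5 endothelial genes, Kdr had 3.02 FPKM in MD1 and 3.26 FPKM in WT and Emcn 1.58 FPKM in MD1 and 4.12 FPKM in WT, while Pecam1, Cdh5 and Tek were under 1 FPKM in both genotypes. Of 5 macrophage genes, Cd68 was the most abundant, with 9.82 FPKM in MD1 and 9.21 FPKM in WT, and Ptprc had 0.352 FPKM in MD1 and 0.470 FPKM in WT.

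Of the 10 genes, 9 were lower and 1 was higher in MD1. The median log2 ratio, of FPKM + 1 in MD1 over FPKM + 1 in WT, was -1.01. Over the 11399 measured genes, defined by a mean of at least 1 FPKM and no listed 0, 49.2% were lower, 50.8% were higher and the median log2 ratio was 0.0058. At least 2-fold lower on this scale were 5 of the 10 genes and 2.81% of all measured genes, and at least 2-fold higher were 0 of the 10 and 1.39% of all. Because the members were chosen with this contrast known, these shares are descriptive. All 10 passed the filter on low values, with FPKM between 1.26 and 668 in MD1 and between 7.95 and 845 in WT. In bulk RNA, fewer cells of a type and less RNA per cell cannot be told apart.

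**Figure D1:**
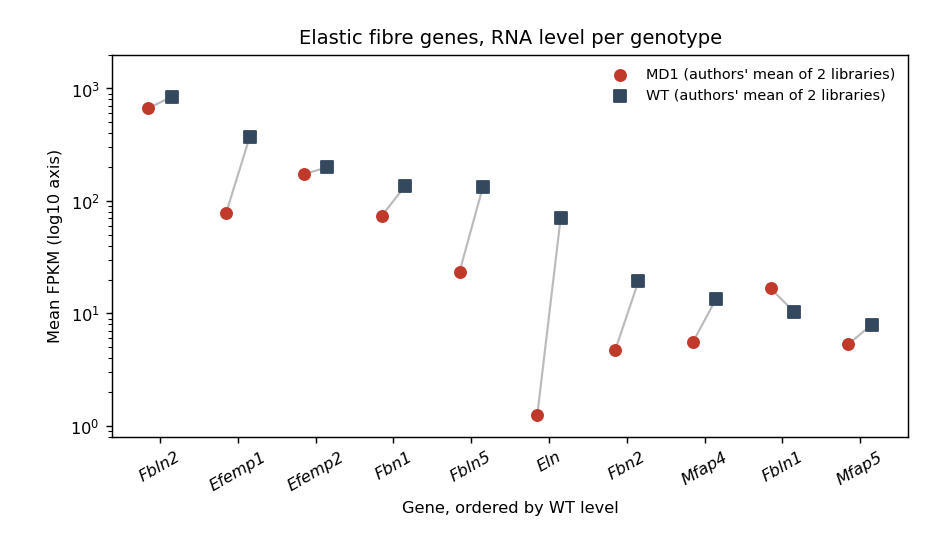
RNA level of the 10 elastic fibre genes as mean FPKM on a log10 axis, with genes ordered by their WT level. Circles are MD1 and squares are WT, each the authors' mean of 2 libraries with no spread; Eln has the widest gap, at 1.26 FPKM in MD1 and 70.8 FPKM in WT, and Fbln1 alone is higher in MD1.

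Promoter sequences are shown first for the 2 fibulin genes that were over 4-fold lower in MD1 (Fbln5 and Efemp1), for the most abundant fibulin gene, which differed little (Fbln2), and for the one that was higher (Fbln1). Each is the run of 250 bases before the RefSeq transcription start in GRCm38.p6, written 5′ to 3′ on the gene's strand. Capitals mark GGGCGG, the GC box bound by Sp1, and CAGAC, the core of the CAGA box bound by Smad3 and Smad4, on either strand. The windows are chr12:101819120-101819369 on the minus strand, and chr11:28852955-28853204, chr6:91212514-91212763 and chr15:85205758-85206007 on the plus strand.
Fbln5 promoter: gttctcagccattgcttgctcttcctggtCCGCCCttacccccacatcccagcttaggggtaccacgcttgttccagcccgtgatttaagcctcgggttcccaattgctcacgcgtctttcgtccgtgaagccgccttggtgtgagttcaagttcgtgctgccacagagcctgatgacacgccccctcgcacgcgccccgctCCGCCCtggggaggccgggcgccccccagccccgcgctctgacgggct
Efemp1 promoter: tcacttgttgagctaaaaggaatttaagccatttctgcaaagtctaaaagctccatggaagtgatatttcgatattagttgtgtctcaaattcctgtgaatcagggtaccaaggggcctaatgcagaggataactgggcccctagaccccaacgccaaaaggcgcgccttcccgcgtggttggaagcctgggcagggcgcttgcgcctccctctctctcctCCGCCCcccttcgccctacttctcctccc
Fbln2 promoter: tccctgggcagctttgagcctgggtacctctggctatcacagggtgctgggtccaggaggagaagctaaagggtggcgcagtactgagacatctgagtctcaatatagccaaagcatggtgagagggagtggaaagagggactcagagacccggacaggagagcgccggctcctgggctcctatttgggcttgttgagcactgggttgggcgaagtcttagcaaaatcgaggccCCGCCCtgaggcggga
Fbln1 promoter: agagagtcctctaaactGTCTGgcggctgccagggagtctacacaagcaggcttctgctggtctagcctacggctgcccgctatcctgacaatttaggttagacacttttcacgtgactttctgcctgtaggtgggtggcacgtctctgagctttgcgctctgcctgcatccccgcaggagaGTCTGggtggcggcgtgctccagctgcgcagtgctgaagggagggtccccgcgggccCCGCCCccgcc

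Of the 10 genes, 6 were found in the promoter table by symbol, and for 5 of these, Fbn1 being the fifth, a RefSeq start gave the same gene span as the deposited table. Eln, Fbn2, Mfap4 and Mfap5 had no entry. GGGCGG occurred in each of the 5 windows, with 2 copies in Fbln5 and 1 in each of the others, against 32.7% of 32851 promoter windows of the same length. CAGAC occurred in the window of Fbln1, at 2 places, and not in those of Fbln5, Efemp1, Fbln2 and Fbn1, against 42.2% of all windows. TATAAA, found in 12.4% of all windows, was in none of the 5. TGANTCA, the AP-1 element, was in that of Efemp1 alone and in 6.75% of all windows. CANNTG, the E-box, was in 4 of the 5, all but that of Fbn1, and in 66.2% of all windows. The windows held 8 to 21 CpG dinucleotides, against a median of 6 over all windows, with 21 in Fbln5, 10 in Efemp1, 8 in Fbln2, 14 in Fbln1 and 13 in Fbn1. No 2 motif matches marked by capitals overlapped. These letter matches are descriptions of sequence and not sites of binding.

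Eln (chromosome 5, 135178466 to 135223124, mm9) encodes tropoelastin, the soluble monomer of elastin. It had 1.26 FPKM in MD1 and 70.8 FPKM in WT, a log2 ratio of -4.99, so that the MD1 level was 1.78% of the WT level. Only 5 of the 11399 measured genes had a lower ratio. In WT its level exceeded that of 89.98% of measured genes, and in MD1 that of 4.06%. Without the pseudocount the log2 ratio was -5.81, which shows how much the scale compresses a gene this low. Eln thus had the lowest level of the 10 genes in MD1 and the sixth highest in WT.

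The fibrillins, the large glycoproteins that polymerise into the microfibril scaffold, were both lower. Fbn1 (chromosome 2, 125126330 to 125332174), the gene mutated in human Marfan syndrome, had 73.8 FPKM in MD1 and 136 FPKM in WT, a log2 ratio of -0.87. Fbn2 (chromosome 18, 58168277 to 58369580), known mainly from fetal microfibrils, had 4.70 FPKM in MD1 and 19.3 FPKM in WT, a log2 ratio of -1.83. The ratio of Fbn2 to Fbn1 FPKM was 0.0637 in MD1 and 0.142 in WT, so Fbn2 was the minor fibrillin RNA in both genotypes and more so in MD1. The genes span 205.8 kb (Fbn1) and 201.3 kb (Fbn2), and each has 65 exons in GENCODE M21.

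Relative to its scaffold, elastin RNA differed far more than fibrillin RNA. The FPKM ratio of Eln to Fbn1 was 0.0171 in MD1 and 0.521 in WT. Such a ratio within a genotype does not depend on the scaling between genotypes.

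The 2 microfibril-associated glycoprotein genes among the members were lower by different amounts. Mfap4 (chromosome 11, 61298946 to 61302206), whose fibrinogen-related protein binds elastin and fibrillin, had 5.55 FPKM in MD1 and 13.53 FPKM in WT, a log2 ratio of -1.15. Mfap5 (chromosome 6, 122463694 to 122479305), which encodes MAGP-2, a fibrillin-binding glycoprotein, had 5.33 FPKM in MD1 and 7.95 FPKM in WT, a log2 ratio of -0.50. Mfap4 lay just past the 2-fold bound, and Fbn1 at -0.87 just short of it. With a pseudocount of 5 Mfap4 had a log2 ratio of -0.81 and lay short of it too. Summed over both glycoprotein genes, the level was 10.9 FPKM in MD1 and 21.5 FPKM in WT.

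The short fibulins, a family with known roles in placing tropoelastin on microfibrils, split into 2 genes that were several-fold lower and 1 that was close to its WT level. Fbln5 (chromosome 12, 102984775 to 103057329) encodes fibulin-5, a ligand of elastin and integrins that mice need for elastic fibre assembly, and had 23.5 FPKM in MD1 and 134 FPKM in WT, a log2 ratio of -2.46. Efemp1 (chromosome 11, 28753205 to 28826743) encodes fibulin-3 and had 78.8 FPKM in MD1 and 368 FPKM in WT, a log2 ratio of -2.21. Efemp2 (chromosome 19, 5474690 to 5481854) encodes fibulin-4, which brings lysyl oxidase to tropoelastin, and had 174 FPKM in MD1 and 199 FPKM in WT, a log2 ratio of -0.19. The order of Efemp1 and Efemp2 was opposite in the genotypes, since the ratio of Efemp1 to Efemp2 FPKM was 0.454 in MD1 and 1.85 in WT. For Fbln5 to Efemp2 this ratio was 0.135 in MD1 and 0.673 in WT. All 3 genes have 11 exons in GENCODE M21.

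The long fibulins went in opposite directions. Fbln2 (chromosome 6, 91162758 to 91222534), which encodes fibulin-2, a partner of fibulin-5 in the elastic lamina of mouse arteries, had 668 FPKM in MD1 and 845 FPKM in WT, a log2 ratio of -0.34. Fbln1 (chromosome 15, 85036438 to 85116724), which encodes fibulin-1, found within the elastin core and bound to fibronectin, had 16.7 FPKM in MD1 and 10.4 FPKM in WT, a log2 ratio of 0.64. It was the 1 gene of the 10 above its WT level, and 95.04% of measured genes had a lower ratio. The ratio of Fbln2 to Fbln1 FPKM was 40.1 in MD1 and 81.6 in WT, so Fbln2 was the far more abundant long fibulin RNA in both genotypes.

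**Figure D2:**
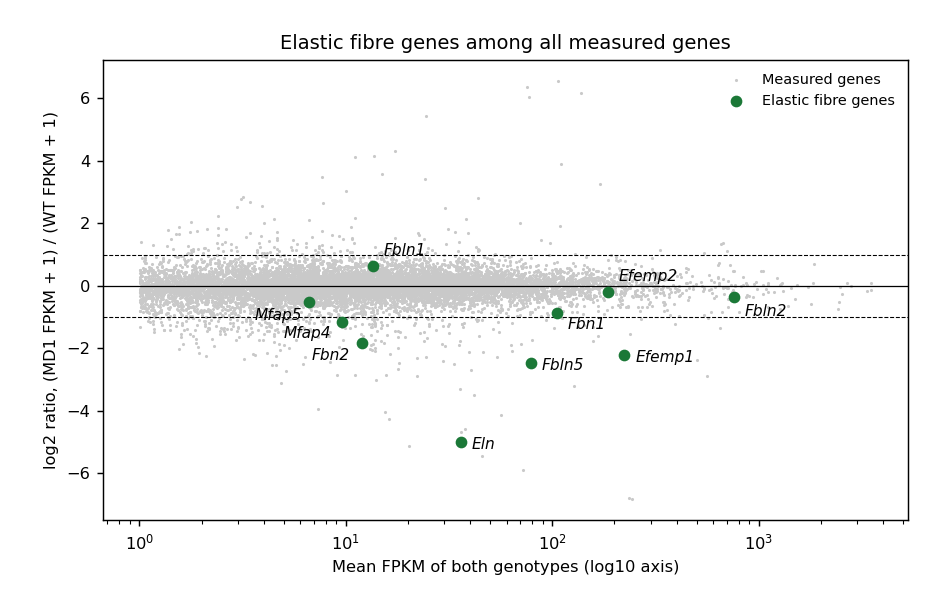
Log2 ratio of MD1 over WT against the mean FPKM of both genotypes (log10 axis) for 11399 measured genes in grey and the 10 elastic fibre genes in green, with dashed lines at 2-fold. Eln, Fbln5, Efemp1, Fbn2 and Mfap4 lie below the lower dashed line, and Fbln1 is the 1 green point above 0, at 0.64.

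Summed over the 10 genes, elastic fibre RNA was 1051 FPKM in MD1 and 1804 FPKM in WT, or 58.3% of the WT level. Fbln2 alone made up 63.6% of this sum in MD1 and 46.9% in WT. Without it the sum was 383 FPKM in MD1 and 959 FPKM in WT, or 39.97% of the WT level. Efemp1 took 7.50% of the sum in MD1 and 20.4% in WT, while Efemp2 took 16.5% in MD1 and 11.02% in WT. The share of Fbln5 was 2.24% in MD1 and 7.42% in WT, and that of Eln 0.120% in MD1 and 3.93% in WT. Fbn1 held its place, with 7.02% in MD1 and 7.53% in WT. The make-up in MD1 was therefore weighted to Fbln2 and Efemp2, and that in WT more evenly spread over Fbln2, Efemp1, Efemp2, Fbn1 and Fbln5.

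From low to high, the levels in MD1 followed the order Eln, Fbn2, Mfap5, Mfap4, Fbln1, Fbln5, Fbn1, Efemp1, Efemp2 and Fbln2. In WT the order was Mfap5, Fbln1, Mfap4, Fbn2, Eln, Fbln5, Fbn1, Efemp2, Efemp1 and Fbln2. Over 100 FPKM were 2 of the genes in MD1 and 5 in WT. Whether neighbours in either order differ beyond the spread between libraries cannot be said from group means.

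**Figure D3:**
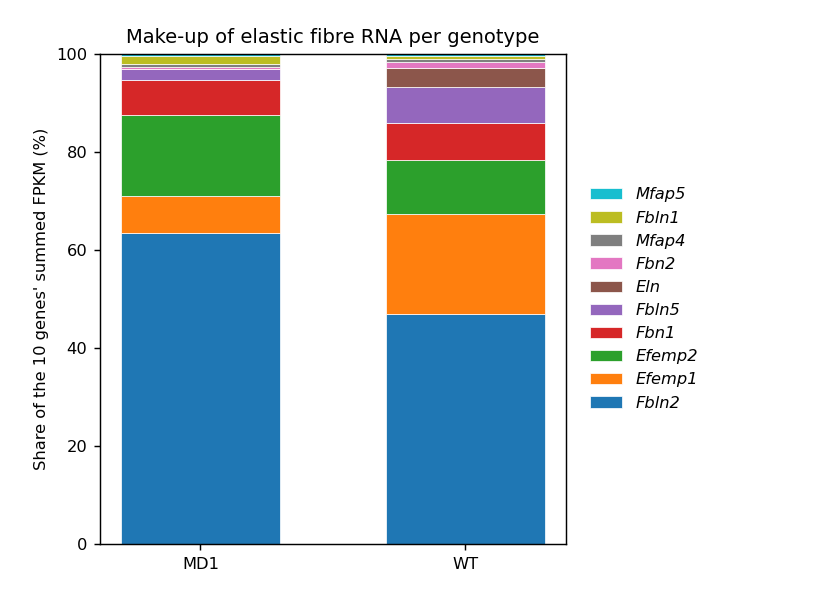
Share of each of the 10 genes in their summed FPKM, in percent, with MD1 on the left and WT on the right. The Fbln2 share was 63.6% in MD1 and 46.9% in WT, and the Efemp1 share was 7.50% in MD1 and 20.4% in WT.

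The members lay on 8 chromosomes, and the span of none overlapped that of another gene of the table, so no overlapping gene in it could share their reads. The nearest measured genes on each side, 20 in all at 0.108 to 2259 kb, had log2 ratios of -0.71 to 0.94 with a median of -0.017. Of these 20 genes, 12 were lower and 8 higher in MD1, and 0 were 2-fold apart. Over all measured genes, 49.2% were lower, 50.8% higher, 2.81% at least 2-fold lower and 1.39% at least 2-fold higher. Slc27a6, beside Fbn2, had 1.12 FPKM in MD1 and 0.894 FPKM in WT, so its direction followed from the filter on low values. Beside the 5 members that were at least 2-fold lower, 4 of 10 neighbours were lower, with a median of 0.13. Mapk7, 0.108 kb from Mfap4, had 14.3 FPKM in MD1 and 14.5 FPKM in WT, and Limk1, 14.01 kb from Eln, had 14.8 FPKM in MD1 and 13.8 FPKM in WT. With shares past 2-fold this small over all measured genes, 0 of 20 neighbours past 2-fold says little about the members' surroundings. Since the fathers were F1 hybrids, the groups may also differ in inherited blocks of JF1 autosome, and at single genes this and the effect of the MD1 allele cannot be told apart.

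Other genes of the elastic fibre pathway, on lists chosen with earlier results of these data known, had a median log2 ratio nearer 0. Of 84 genes on 10 lists, 74 were measured, 7 of them (9.46%) at least 2-fold lower and 2 (2.70%) at least 2-fold higher in MD1, with 49 lower and 25 higher and a median of -0.27. Over all measured genes the corresponding shares past 2-fold were 2.81% and 1.39%, with 49.2% lower and 50.8% higher. All 5 lysyl oxidase genes were lower, with a median of -0.45. Lox, the main crosslinking enzyme, had 691 FPKM in MD1 and 723 FPKM in WT, while Loxl4 had 16.8 FPKM in MD1 and 42.4 FPKM in WT (log2 ratio -1.29). The FPKM ratio of Eln to Lox was 0.00182 in MD1 and 0.0979 in WT, so the substrate differed far more than the main enzyme. The 3 genes that supply copper to these enzymes had a median of -0.090, with the copper chaperone gene Atox1 at 158 FPKM in MD1 and 155 FPKM in WT.

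Among 15 measured microfibril-associated genes, 11 were lower and 4 higher, with a median of -0.38. The shares over all measured genes were 49.2% lower, 50.8% higher and 2.81% at least 2-fold lower. Thsd4, with 0.716 FPKM in MD1 and 1.56 FPKM in WT, passed the filter on low values through WT alone, so its direction followed from the filter. Adamts10, a fibrillin-binding protease family gene, was past 2-fold, with 5.46 FPKM in MD1 and 15.4 FPKM in WT (log2 ratio -1.34). Ltbp1, which tethers latent TGF-beta to microfibrils, had 59.4 FPKM in MD1 and 117 FPKM in WT (log2 ratio -0.97). The 1 further fibulin family gene measured, the hemicentin gene Hmcn1, had 0.198 FPKM in MD1 and 3.64 FPKM in WT (log2 ratio -1.95), or 5.43% of the WT level. It passed the filter on low values through WT alone, so its direction followed from the filter. Of 4 proteoglycan genes 3 were lower, with a median of -0.33, and Bgn, the gene of the elastin-binding proteoglycan biglycan, had 1287 FPKM in MD1 and 1721 FPKM in WT.

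Microfibrils store ligands of the TGF-beta family, and TGF-beta is known to raise elastin RNA. Of 9 ligand genes 6 were lower and 3 higher, with a median of -0.31, and 3 were past 2-fold. Over all measured genes 49.2% were lower and 50.8% higher, with 2.81% at least 2-fold lower and 1.39% at least 2-fold higher. Bmp2, with 0.785 FPKM in MD1 and 1.22 FPKM in WT, passed the filter on low values through WT alone, so its direction followed from the filter. Bmp4 had 11.97 FPKM in MD1 and 48.1 FPKM in WT (log2 ratio -1.92), Tgfb2 had 12.9 FPKM in MD1 and 30.4 FPKM in WT (-1.17), and Tgfb3 had 72.9 FPKM in MD1 and 150 FPKM in WT (-1.03). Inhba, which encodes the activin A subunit, had 266 FPKM in MD1 and 152 FPKM in WT (0.80). The 10 receptor and Smad genes had a median of 0.095, with 4 lower, 6 higher and 0 past 2-fold, and Tgfbr2 had 23.9 FPKM in MD1 and 31.9 FPKM in WT. The 10 genes known to respond to TGF-beta were evenly split, 5 lower and 5 higher, with a median of -0.043 and 0 past 2-fold. With shares past 2-fold this small over all measured genes, 0 of 10 says little about either list. The part of TGF-beta signalling in the values of the elastic fibre genes was not tested.

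Of 8 genes for enzymes that can degrade elastin, 5 were lower and 3 higher, with a median of -0.17. The shares over all measured genes were 49.2% lower and 50.8% higher, with 2.81% at least 2-fold lower and 1.39% at least 2-fold higher. Past 2-fold were Mmp9 and Mmp12, the 2 pathway genes counted as higher, and both passed the filter on low values through MD1 alone, so their direction followed from the filter. Mmp9, gelatinase B, had 3.22 FPKM in MD1 and 0.285 FPKM in WT (log2 ratio 1.71), and Mmp12, the macrophage elastase, had 2.56 FPKM in MD1 and 0.271 FPKM in WT (1.49). The most abundant, the cathepsin gene Ctsl, had 352 FPKM in MD1 and 399 FPKM in WT. Of 4 measured macrophage genes 3 were lower, and their summed level was 17.8 FPKM in MD1 and 23.1 FPKM in WT, whose part in the values of Mmp12 was not tested. Of 10 receptor genes 7 were lower and 3 higher, with a median of -0.31. The integrin gene Itga8 was past 2-fold, with 2.22 FPKM in MD1 and 7.80 FPKM in WT (-1.45), and the shared integrin subunit gene Itgb1 had 785 FPKM in MD1 and 960 FPKM in WT.

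**Figure D4:**
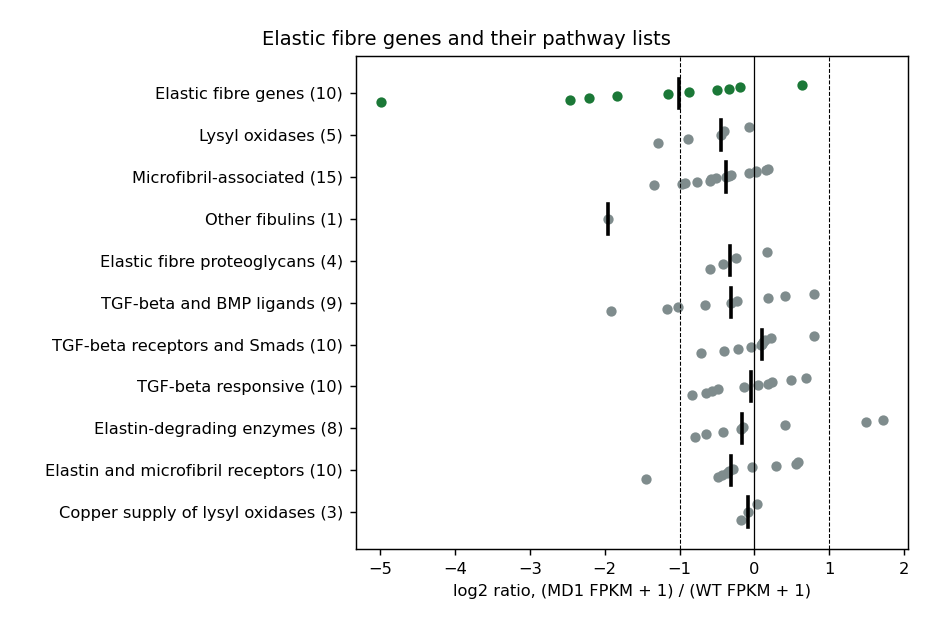
Log2 ratios of MD1 over WT for the 10 elastic fibre genes (green) and for the measured genes of 10 pathway lists (grey, number measured in parentheses), each point being a gene and each black bar the median of its row. Dashed lines mark 2-fold; the elastic fibre genes have a median of -1.01, and the lists with 3 or more genes have medians between -0.45 and 0.095.

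Markers of other cell states moved alongside the members. Over all measured genes 49.2% were lower, 50.8% higher and 2.81% at least 2-fold lower. Of 9 measured smooth muscle genes 8 were lower and 5 at least 2-fold lower, with a summed level of 3556 FPKM in MD1 and 5872 FPKM in WT. Within that list, the myosin gene Myh11 had 2.31 FPKM in MD1 and 25.6 FPKM in WT, the actin gene Acta2 1826 FPKM in MD1 and 3015 FPKM in WT, and Smtn 51.1 FPKM in MD1 and 48.0 FPKM in WT. Its defining regulator Myocd was low in both, at 0.672 FPKM in MD1 and 1.13 FPKM in WT. All 6 proliferation genes were higher, with a summed level of 338 FPKM in MD1 and 179 FPKM in WT. Of 9 measured fibroblast genes 5 were lower and 4 higher, with a summed level of 5223 FPKM in MD1 and 6237 FPKM in WT. The lowest ratio was that of Col3a1, with 78.7 FPKM in MD1 and 189 FPKM in WT. The highest was that of Pdgfra, with 9.25 FPKM in MD1 and 4.79 FPKM in WT. Fap, 1 of the 5 lower genes, had 0.890 FPKM in MD1 and 3.003 FPKM in WT. It passed the filter on low values through WT alone, so its direction followed from the filter. Of 4 tendon genes and of 4 measured cartilage genes 3 each were lower. Summed levels were 19.96 FPKM for tendon and 92.2 FPKM for cartilage in MD1, and 30.6 and 142 FPKM in WT. Most of the cartilage sum was Col2a1, and the 1 higher cartilage gene was Sox9. Comp had 0.264 FPKM in MD1 and 2.35 FPKM in WT, and Acan 0.962 FPKM in MD1 and 1.61 FPKM in WT. Both passed the filter on low values through WT alone, so their direction followed from the filter. The part of such differences in the values of the elastic fibre genes was not tested.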

How the data were processed

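RNA-seq libraries of fibroblasts, 2 MD1 and 2 WT, were grouped by their titles. Per the labels' protocols, the kit for mRNA was stranded. The authors deposited FPKM as 1 mean per genotype for 22691 genes, and allele-specific read counts per library for 952 X-linked genes. Only the totals of these counts are used here. In those totals, sequencing depth and the level of X-linked RNA cannot be told apart. Build mm9 and the tools Cuffdiff and Cufflinks 2.2.1 appear in the submitters' processing notes, without their roles. The aligner, the annotation and the strand setting of the counting were not given in the sources used here.

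Starts in the table are counted from 0 and are printed 1-based in mm9. Log2 ratios of MD1 over WT were computed with Python 3.11.15 and pandas 2.3.3 after adding 1 to each FPKM, which understates differences of low genes. Genes listed at 0 in a genotype, or averaging under 1 FPKM, were left out. With 1 mean per genotype no test was fitted. The ratio function was tested on simulated data. Alternatives were other pseudocounts, filters, quantile normalization and centring.

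The members and lists were chosen with earlier results of these data known. Named genes are the members, Smchd1, in each pathway list the most abundant gene and those at least 2-fold apart. In each marker list they are the most abundant gene and those with the highest and lowest ratio. Of the latter the text gives those for smooth muscle, fibroblasts, cartilage, epithelium and endothelium, with Cd68 for macrophages. 1 gene that this rule names is not reported here. Epcam, Cdh1, Pecam1, Cdh5, Tek, Ptprc, Myocd, Mapk7, Limk1, Slc27a6, Thsd4, Bmp2, Acan and Fap were named after their values were seen. Promoters are from RefSeq, and exon numbers from GENCODE M21, both on GRCm38, and no coordinates were moved between builds.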

Additional observations from a re-analysis of the deposited data

How the results depend on the processing

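Across 6 alternatives, all 60 values of the 10 members kept their sign, and 59 stayed within 1.5 times. The exception was Mfap5, at -0.33 with a pseudocount of 5. A filter leaves a member's own ratio unchanged, and a pseudocount cannot change its sign. Most of these signs were therefore fixed in advance and say little about the stability of the values. The log2 ratio of Eln spanned -5.71 to -3.60 and that of Fbln5 -2.50 to -2.28. The number of all measured genes at least 2-fold lower was 494 with a pseudocount of 0.1, 123 with a pseudocount of 5 and 191 when genes averaging under 5 FPKM were dropped, against 320.

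With a pseudocount of 0.1, list medians were -3.65 for the other fibulins and -0.58 for TGF-beta and BMP ligands. With a pseudocount of 5 they were -0.73 for the other fibulins, -0.12 for the ligands and -0.25 for microfibril-associated genes. Without a filter they were -1.06 for the other fibulins and -0.18 for the receptors, and the epithelial median reversed, from 0.14 to -0.024. With genes averaging under 5 FPKM dropped they were -0.66 for the ligands and -0.30 for elastin-degrading enzymes. Among the marker lists, the smooth muscle median was -0.72 with a pseudocount of 5, against -1.24. That of fibroblasts was -0.27 without a filter, against -0.55. For cartilage it was -0.039 with genes averaging under 5 FPKM dropped, against -0.54. A filter changes which genes enter a median, and a pseudocount changes the ratios of low genes most. The other fibulins had 1 measured gene and cartilage had 4, so such medians rest on few genes.

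No paired analysis was possible because FPKM was given as 1 mean per genotype, and for the same reason leaving out each replicate was not run. A ratio that rests on 1 library would go unseen.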
